A study of Mus musculus with 48 samples.

Results

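The 10 genes described here mark stem cells and progenitors of the mouse hair follicle (HF). They are Lhx2, Sox9, Nfatc1, Tbx1, Foxc1, Lgr5, Lgr6, Lrig1, Cd34 and Krt15, and they were chosen by symbol from the 46983 genes listed in each of 2 tables of FPKM, a level scaled for transcript length and for sequencing depth. All 10 were found in both tables, and all 10 passed the filter on low values, 0.5 FPKM or more in 2 or more libraries. The study asked how HF cycling differs between skin domains of C57BL/6 mice. RNA was sequenced from chin, ventral and dorsal whole skin at 6 stages, competent telogen, anagen in its early, mid and late phases, catagen and refractory telogen, in 43 libraries of 18 groups with 2 or 3 libraries each. A second table holds 2 libraries of telogen ear skin, 3 of a cartilage/muscle complex of the ear and 2 of dorsal skin labelled competent telogen. No transgene or treatment is named for these libraries, and the labels and methods used here do not give the ages of the mice or say whether libraries came from separate animals, so p-values measure only the spread between libraries.

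The HF cycles between rest (telogen), growth (anagen) and regression (catagen). Its stem cells sit in the bulge and, in telogen, in the hair germ beneath it, and they feed the growing follicle at the start of anagen. Competent telogen follicles can enter anagen readily, whereas refractory telogen follicles resist activation. Among the genes described, LHX2, SOX9, NFATC1, TBX1 and FOXC1 are transcription factors of the bulge, of which NFATC1 and FOXC1 are known for keeping stem cells quiescent. LGR5 and LGR6 are receptors for R-spondins, which strengthen WNT signaling: Lgr5 marks the lower bulge and hair germ, and Lgr6 the isthmus. LRIG1, an inhibitor of EGF receptor signaling, marks the upper follicle. CD34 is a surface protein of bulge cells and also of blood vessels and dermal cells, and keratin 15 (Krt15) is a filament protein of bulge and basal cells.

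SOX9 is also the main transcription factor of cartilage. On GRCm38 (GENCODE vM21), Krt15 lies on chromosome 11 from 100131758 to 100135928 on the minus strand, and Sox9 on the same chromosome from 112782224 to 112787760 on the plus strand. Lgr5 lies on chromosome 10 from 115450311 to 115587780 (minus), Lhx2 on chromosome 2 from 38339281 to 38369733 (plus), Tbx1 on chromosome 16 from 18580979 to 18590671 (minus) and Foxc1 on chromosome 13 from 31806633 to 31812476 (plus). Lgr6 lies on chromosome 1 from 134983301 to 135105276 (minus). Cd34 (chromosome 1, 194938819 to 194961279, plus) shares exon bases with the antisense gene Gm16897, and Lrig1 (chromosome 6, 94604529 to 94700158, minus) with Slc25a26 on the other strand. The library kit does not keep strand, so reads from those shared bases cannot be assigned to one gene of the pair.

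Cd34 and Lgr6 followed the course of Nfatc1 over the groups (below), and both have an entry among the RefSeq promoters used, so the 250 bases before their start sites are shown, from RefSeq promoters on GRCm38.p6, 5′ to 3′ on the strand of the gene. The Cd34 window is chr1:194938571-194938820 on the plus strand and the Lgr6 window chr1:135105277-135105526 on the minus strand. Capitals mark matches on either strand to GGAAA, the core that NFAT factors bind, and to ACAATG, a core for SOX factors.
Cd34: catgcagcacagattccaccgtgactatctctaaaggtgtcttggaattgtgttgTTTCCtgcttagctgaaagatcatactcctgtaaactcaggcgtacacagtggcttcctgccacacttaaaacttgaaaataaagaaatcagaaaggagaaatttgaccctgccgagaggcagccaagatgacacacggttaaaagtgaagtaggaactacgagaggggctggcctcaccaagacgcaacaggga
Lgr6: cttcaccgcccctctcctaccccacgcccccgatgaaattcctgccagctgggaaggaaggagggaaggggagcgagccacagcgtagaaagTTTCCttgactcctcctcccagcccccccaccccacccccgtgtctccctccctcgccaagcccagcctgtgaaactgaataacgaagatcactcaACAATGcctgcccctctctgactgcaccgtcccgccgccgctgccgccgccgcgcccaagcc
Each window holds 1 match to GGAAA on the reverse strand, and the Lgr6 window also holds 1 match to ACAATG. Of the 32851 promoters in the table, 55.6% hold GGAAA and 10.7% hold ACAATG in the same 250 bases. Neither window held GTAAACA (FOX factors, 3.17% of promoters), TAATTA (LIM homeodomain factors, 4.84%) or CTTTGA (TCF/LEF factors, 13.8%). These motifs do not overlap each other in the windows shown. Among the other genes, each window of Lhx2 and Foxc1 holds 1 match to GGAAA, and those of Lrig1 and Tbx1 hold none. No windows were read for Krt15, Nfatc1, Sox9 and Lgr5, so motifs before their start sites were not examined.

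Marker genes of other cells were read beside the stem cell genes, because whole skin mixes them. In all 18 skin groups the basal keratinocyte list (Krt5, Krt14, Trp63, Itga6, Itgb4 and Lamb3) was present, at group means of 1801 to 7964 summed FPKM, and the 6 chondrocyte genes summed to at most 2.06 FPKM in any library. The inner root sheath list (Krt25, Krt27, Krt71, Tchh and Gata3), made by growing follicles, did not follow the telogen labels. It summed to 6270 FPKM in chin refractory telogen, 8203 in ventral competent telogen, 10460 in chin competent telogen, 14460 in dorsal refractory telogen, 16260 in ventral refractory telogen and 18770 in dorsal competent telogen, against 291.5 in telogen ear skin. The lowest skin value, 4456 FPKM, was in ventral early anagen. The 2 dorsal competent telogen libraries were as close to the 2 chin late anagen libraries (chi-square per gene of 2.05 to 2.29 for the 4 pairs, where about 1 is expected from counting error alone) as replicates were to each other (median 2.70, 36 pairs), and the next closest pair of libraries from different groups stood at 3.80. Tests and correlations that use dorsal competent telogen are therefore given with and without it, with 3 exceptions. The comparison of the dorsal telogen stages has no value without it. The likeness of other genes, and the ear comparisons of other stem cell region genes, were computed only with it. The 2 dorsal competent telogen libraries stood at 1.18 from each other, the lowest of the 36 replicate pairs. In the other direction, the 2 ventral refractory telogen libraries were the replicates farthest apart, at 10.5. Ventral catagen replicate 1 carries an ear location in 1 of its labels against ventral in the others, and was kept as ventral. In bulk tissue, fewer cells of a type and less RNA per cell cannot be told apart.

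Krt15 had the widest course of the 10 genes apart from Tbx1. It was measured at 5511, 5659 and 6043 FPKM in ventral early anagen, at 4429, 3108 and 4257 in chin refractory telogen, and at 2513 and 2557 in chin competent telogen. At the other end stood dorsal catagen with 487.5 and 482.2 FPKM, ventral catagen with 594.2 and 547.5, chin late anagen with 638.1 and 638.6, and dorsal competent telogen with 663.6 and 648.9. The highest group mean was 11.8 times the lowest, and libraries overlapped between 7 of the 17 neighbouring groups in the order of means. The 2 dorsal competent telogen libraries sat next to chin late anagen in this order. They did not overlap it, but all libraries of both groups lay between 638.1 and 663.6 FPKM, and this difference was not tested.

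By its own values, Nfatc1 could be split into a high and a low set of groups. In ventral early anagen it was at 22.78, 22.97 and 21.78 FPKM, in chin refractory telogen at 20.99, 15.55 and 21.56, in dorsal early anagen at 16.48 and 14.89, and in chin competent telogen at 12.77 and 13.61. Every library of mid-anagen, late anagen and catagen, in all 3 domains, was at or below 5.61 FPKM, and so were both dorsal competent telogen libraries, at 3.80 and 4.31. The lowest library of the other groups was at 6.43 FPKM, in ventral refractory telogen. The 2 sets were divided at this gap, so their lack of overlap follows from the division. The share of all genes that can be split in this way was not computed. The lowest mean, 3.00 ± 0.45 (SD, n = 2), was in ventral catagen.

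Cd34 was highest in chin refractory telogen, at 114.4, 72.16 and 114.1 FPKM, and in ventral competent telogen, at 100.6, 103.2 and 92.76. These overlapped each other, and the next group, dorsal early anagen at 72.66 and 72.18, reached only the lowest of the chin libraries. The low end, from 26.24 to 31.43 FPKM, was shared by ventral catagen, dorsal catagen, dorsal mid-anagen and chin mid-anagen. Cd34 thus peaked in a different telogen stage in chin and in ventral skin.

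The R-spondin receptors differed from each other. By group mean, Lgr5 was highest in the refractory telogen of all 3 domains, at 14.75 and 14.72 FPKM in dorsal skin, 15.04 and 11.14 in ventral skin, and 13.59, 11.53 and 13.71 in chin skin, and these libraries overlapped. The chin and ventral ones also overlapped ventral early anagen (12.13 to 13.49), chin competent telogen (11.71 to 12.38) and chin early anagen (11.25 to 12.0). Lgr5 was lowest in ventral mid-anagen, at 3.88 and 4.0. Lgr6, at lower levels, was at 6.27 and 5.57 FPKM in chin competent telogen and 6.04, 5.17 and 5.63 in chin refractory telogen, but at 2.03 and 1.23 in ventral and 2.23 and 2.09 in dorsal refractory telogen. The lowest Lgr6 group was ventral catagen, at 1.3 and 1.29 FPKM.

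Among the transcription factors, Lhx2 ranged from 17.05 ± 1.51 FPKM (SD, n = 3) in ventral early anagen to 7.02 ± 1.41 (n = 3) in chin catagen, and its libraries in chin mid-anagen, at 7.69 and 14.95, spanned much of that range. Sox9 was at 194.4, 188.0 and 163.6 FPKM in ventral early anagen and at 143.4 and 142.4 in ventral mid-anagen. Its other groups lay between means of 79.31 and 131.2, with libraries overlapping between 15 of 17 neighbouring groups. Tbx1 was at 71.08, 78.57 and 58.28 FPKM in ventral competent telogen and at 1.98 and 3.11 in dorsal catagen, while every other library lay between 21.02 and 46.00.

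Foxc1 ran against Tbx1 in dorsal catagen, where it was highest, at 22.99 and 22.81 FPKM. Dorsal refractory telogen followed at 20.40 and 20.46, and the lowest group was dorsal early anagen at 6.81 and 7.81. Dorsal catagen also stood apart in Hoxc13, a hair matrix factor, at 178.0 and 207.8 FPKM against group means of 25.85 to 100.2 in the other 17 groups, and its part in these values was not tested. Lrig1 was highest in ventral early anagen at 57.77, 56.14 and 54.20 FPKM and lowest in dorsal catagen at 14.23 and 15.79, and its chin mid-anagen libraries, at 15.08 and 34.71, were again far apart. Ventral early anagen, where Krt15, Nfatc1, Lhx2, Sox9 and Lrig1 were highest, also had the highest basal keratinocyte list of the 18 groups (7964 summed FPKM, the next being 5721), and dorsal catagen had the lowest (1801). The part of that list in these levels was not tested.

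**Figure D1:**
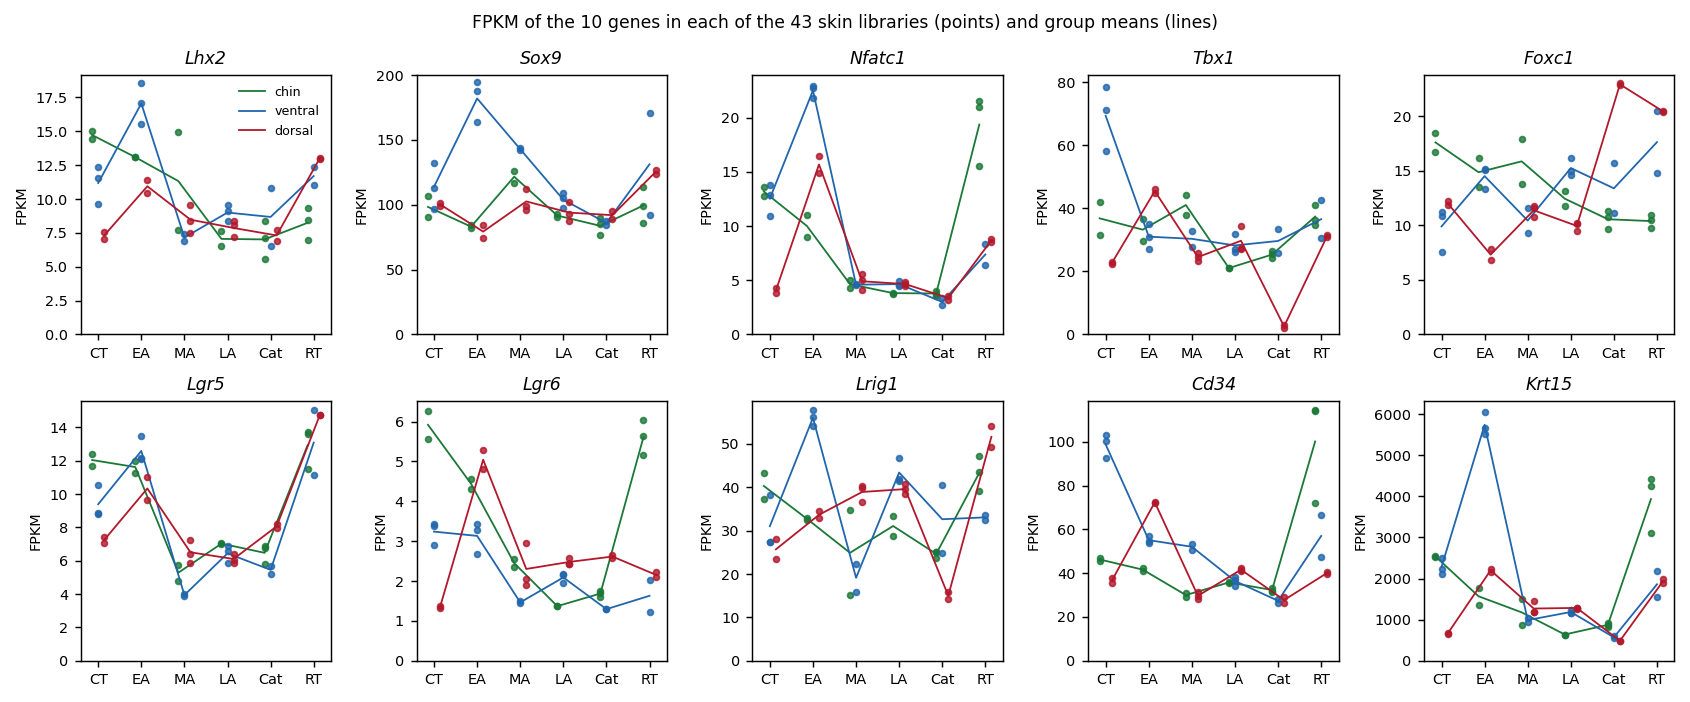
FPKM of each of the 10 genes (linear axes from 0) at competent telogen (CT), early anagen (EA), mid-anagen (MA), late anagen (LA), catagen (Cat) and refractory telogen (RT) in chin, ventral and dorsal skin. Points are the 43 libraries and lines join group means. Nfatc1 stays at or below 5.61 FPKM in every library of mid-anagen, late anagen and catagen, and Krt15 and Sox9 peak in ventral early anagen.

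All 10 genes differed over the 6 stages in each domain (limma on log2(FPKM + 1), Benjamini-Hochberg adjusted over 21257 genes). Of all genes tested, 66.2% differed in chin, 70.2% in ventral and 68.5% in dorsal skin, so a gene that differs over the stages was the common case. The strongest of the 10 were Nfatc1 in chin (adjusted p = 2.35e-15) and ventral skin (3.07e-16) and Tbx1 in dorsal skin (1.07e-15), and the weakest in chin was Sox9 (0.0397). The chin Sox9 call was lost when any one of 7 libraries was left out (adjusted p of 0.0505 to 0.191), with a replicate block (0.056), without the filter (0.062), by quantile normalization (0.062) and after rescaling to TPM (0.25). In dorsal skin the Sox9 call (0.0286) was lost without dorsal early anagen replicate 1 (0.12) or either dorsal refractory telogen library (0.12 and 0.093) and after rescaling to TPM (0.12). Relative to the basal keratinocyte list, Lhx2 was lost in ventral (0.070) and dorsal skin (0.31). Without dorsal competent telogen all 10 genes passed in dorsal skin, beside 66.5% of all genes.

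Anagen was then set against telogen, as the mean of mid- and late anagen minus the mean of both telogen stages. In chin skin 7 of the 10 genes were lower in anagen and 0 higher, where 42.6% of all genes passed the test, 34.1% lower and 8.55% higher. Krt15 fell by 1.88 on the log2 scale (SE 0.12, adjusted p = 3.58e-13), Nfatc1 by 1.70 (SE 0.09, 9.76e-15), Lgr6 by 1.24 (SE 0.08, 1.35e-12), Cd34 by 1.02 (SE 0.09, 6.22e-10) and Lgr5 by 0.92 (SE 0.08, 1.43e-10). Lrig1 and Tbx1 were lower by less, with log2 fold changes of -0.62 and -0.32, and the Tbx1 call was lost without chin competent telogen replicate 1 (-0.22, adjusted p = 0.20), chin mid-anagen replicate 2 (-0.26), either chin late anagen library (-0.32) or chin refractory telogen replicate 1 (-0.28), and by median of ratios (-0.10) or quantile normalization (-0.13). Foxc1 (0.04), Sox9 (0.10) and Lhx2 (-0.31) did not pass. The median of the 10 was -0.77, against -0.17 over all genes.

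In ventral skin 7 of the 10 were again lower in anagen and 0 higher, beside 31.8% of all genes called, 22.9% lower and 8.82% higher. Lgr5 fell by 0.99 (SE 0.07, adjusted p = 2.35e-11), Nfatc1 by 0.92 (SE 0.09, 2.31e-09), Krt15 by 0.91 (SE 0.11, 2.82e-07), Cd34 by 0.76 (SE 0.09, 9.49e-08) and Tbx1 by 0.75 (SE 0.11, 4.74e-06). The log2 fold changes of Lhx2 (-0.46) and Lgr6 (-0.27) also passed, that of Lgr6 not without ventral refractory telogen replicate 1 (-0.16, adjusted p = 0.14), nor by median of ratios (-0.18) or quantile normalization (-0.07). Sox9, Foxc1 and Lrig1 did not pass, and the median of the 10 was -0.61, against -0.09 over all genes. Early anagen had no part in this contrast. Of the 7 called genes, Krt15, Nfatc1 and Lhx2 had a higher mean in ventral early anagen than in either ventral telogen stage. Cd34 and Tbx1 had a lower one there, and Lgr5 and Lgr6 lay between the telogen stages.

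Dorsal skin gave another picture, which changed with the scaling and also when the dorsal competent telogen libraries were left out. With those libraries 4 of the 10 passed, Lgr5 (-0.64), Foxc1 (-0.52) and Nfatc1 (-0.28) lower and Lgr6 (0.31) higher in anagen, where 31.4% of all genes passed, 10.4% lower and 21.0% higher. That count was 7 by median of ratios, 6 lower and 1 higher, beside 17.8% and 13.5% of all genes. By quantile normalization it was 8, 6 lower and 2 higher, beside 13.7% and 17.1%. The median of the 10 was -0.16 with the deposited FPKM and -0.31 by either of these scalings. Without the dorsal competent telogen libraries, anagen was compared with refractory telogen alone, and 5 passed, all lower, beside 33.3% of all genes. These were Lgr5 (-1.11, adjusted p = 5.90e-10), Foxc1 (-0.88, 4.50e-06), Nfatc1 (-0.75, 5.43e-06), Lhx2 (-0.62, 0.00454) and Krt15 (-0.60, 0.00194). Krt15 had stood at 0.18 with them (adjusted p = 0.26), and the higher Lgr6 was lost (0.09, adjusted p = 0.55). The Nfatc1 call with those libraries was also lost when dorsal competent telogen replicate 2 (-0.24) or dorsal refractory telogen replicate 2 (-0.27) was left out, and after rescaling to TPM (-0.17).

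Scaling bears on these directions. Relative to the basal keratinocyte list, the median of all genes moved to 0.68 in chin, 0.32 in ventral and 0.23 in dorsal skin. That list summed to 3145 and 3317 FPKM in chin mid- and late anagen, and to 4602 and 4806 in chin competent and refractory telogen. On that scale the chin median of the 10 was 0.08 and Krt15, Nfatc1 and Lgr6 remained lower in chin anagen, while Lhx2, Tbx1 and Lrig1 turned positive. Of the genes called in chin, 20.1% were higher with the deposited FPKM, 42.4% by median of ratios, 46.7% by quantile normalization and 97.7% relative to the basal list. In ventral skin these shares were 27.8%, 45.4%, 50.9% and 90.7%, and in dorsal skin 66.8%, 43.2%, 55.5% and 89.3%, with 80.5% after rescaling to TPM.

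**Figure D2:**
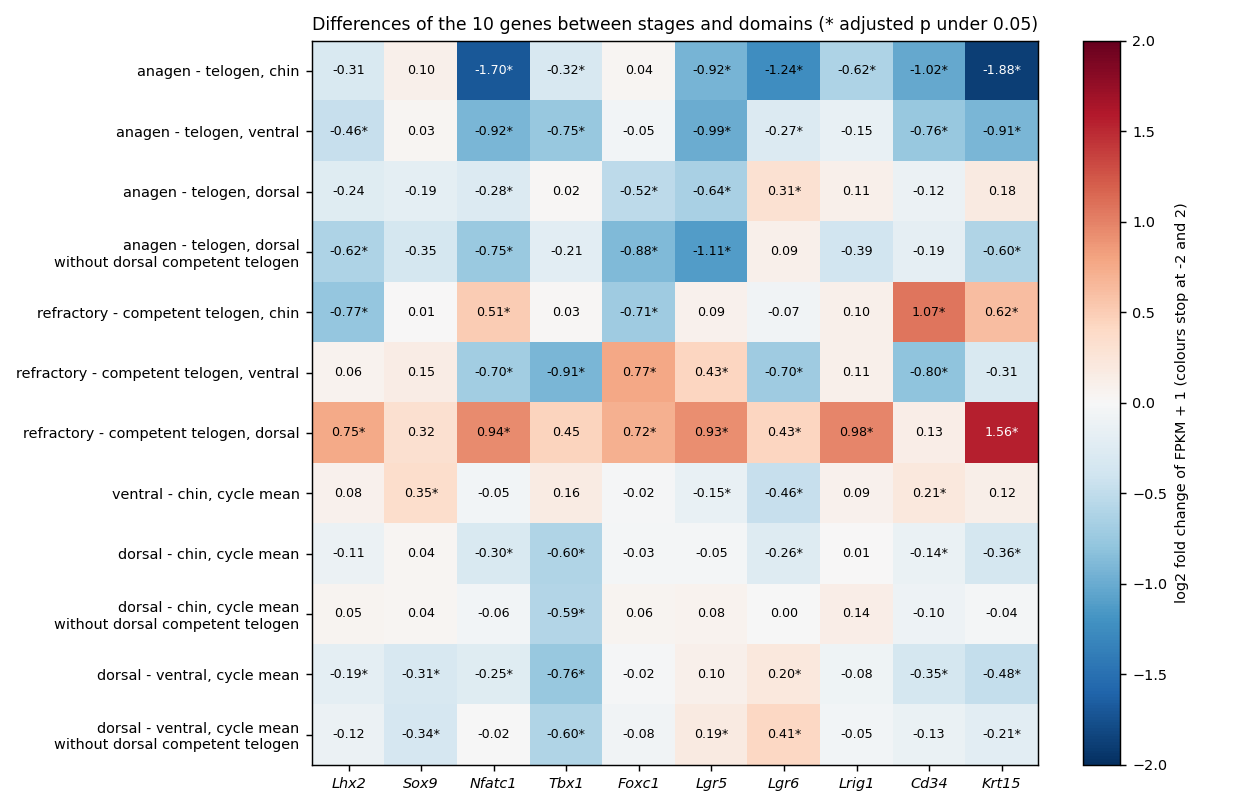
Log2 fold changes of FPKM + 1 for the 10 genes (columns) in each comparison of stages and domains (rows), with and without the dorsal competent telogen libraries. Asterisks mark an adjusted p under 0.05. Anagen is the mean of mid- and late anagen, without early anagen. Chin and ventral anagen minus telogen hold 7 called negative values each, and in dorsal skin Krt15 goes from 0.18 to -0.60 when dorsal competent telogen is left out.

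The 2 telogen stages were compared next, refractory minus competent. In chin skin Cd34 was higher in refractory telogen by 1.07 (SE 0.13, adjusted p = 6.70e-08), Krt15 by 0.62 (SE 0.16, 0.00297) and Nfatc1 by 0.51 (SE 0.12, 0.00152), while Lhx2 fell by 0.77 (SE 0.18, 0.00113) and Foxc1 by 0.71 (SE 0.14, 0.000204). That is 3 higher and 2 lower, where 36.3% of all genes passed, 17.8% higher and 18.4% lower. The skeletal muscle list stood at 11160 summed FPKM in chin refractory and 386.5 in chin competent telogen, the macrophage list at 520.4 and 80.16, and their part in these values was not tested.

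In ventral skin Cd34, Nfatc1 and Foxc1 had the opposite sign, a difference that was not tested for each gene on this contrast. Tbx1 fell by 0.91 (SE 0.16, adjusted p = 2.51e-05), Cd34 by 0.80 (SE 0.13, 6.17e-06), Nfatc1 by 0.70 (SE 0.12, 3.38e-05) and Lgr6 by 0.70 (SE 0.11, 8.90e-06), and Foxc1 (0.77, SE 0.14) and Lgr5 (0.43, SE 0.11) were higher in refractory telogen. These 4 lower and 2 higher genes stand beside 42.6% of all genes called, 34.5% lower and 8.12% higher, with an all-gene median of -0.22. The fibroblast list fell from 6089 summed FPKM in ventral competent to 2415 in refractory telogen and the melanocyte list from 228.5 to 17.16, while the basal keratinocyte list stood at 3130 and 5314, the inner root sheath list at 8203 and 16260, the adipocyte list at 422.8 and 954.6 and the skeletal muscle list at 183.1 and 679.4, and their part was not tested. The Lgr5 call was lost without ventral refractory telogen replicate 1 (0.23, adjusted p = 0.12) and after rescaling to TPM (0.20, adjusted p = 0.18).

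In dorsal skin 7 of the 10 were higher in refractory telogen and 0 lower, beside 22.2% of all genes called, 10.8% higher and 11.3% lower. Krt15 was higher by 1.56 (SE 0.18, adjusted p = 1.49e-07), Lrig1 by 0.98 (SE 0.22, 0.00148), Nfatc1 by 0.94 (SE 0.13, 6.19e-06), Lgr5 by 0.93 (SE 0.12, 6.97e-07), Lhx2 by 0.75 (SE 0.20, 0.00593), Foxc1 by 0.72 (SE 0.16, 0.000950) and Lgr6 by 0.43 (SE 0.12, 0.0116). The Lhx2 call was lost without dorsal competent telogen replicate 2 (0.71, adjusted p = 0.053), and that of Lgr6 without either dorsal competent telogen library (0.41 and 0.45) or dorsal refractory telogen replicate 1 (0.40). This comparison rests wholly on the dorsal competent telogen libraries described above and has no value without them. Relative to the basal keratinocyte list, which summed to 5721 FPKM in dorsal refractory and 3261 in dorsal competent telogen, only Krt15 remained higher, 3 were lower, and the median of all genes was -0.86. Of the genes called between the telogen stages, 49.2% were higher in chin, 19.0% in ventral and 49.0% in dorsal skin, and by median of ratios 59.6%, 48.5% and 52.3%.

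Differences among the domains were tested at each stage. Early anagen had 9 of the 10 genes called, beside 51.6% of all genes, and competent telogen 8, beside 54.0%. Mid-anagen had 7 (38.1% of all genes), catagen 6 (42.9%), refractory telogen 6 (42.2%) and late anagen 3 (20.8%). In late anagen the 3 were Krt15, Lgr6 and Foxc1. Lgr6 and Foxc1 were called at every stage. With dorsal competent telogen left out, ventral and chin competent telogen differed in 5 of the 10 genes, beside 22.6% of all genes, and Krt15, Nfatc1 and Lhx2 no longer passed. Without ventral early anagen the early anagen count was 4, beside 26.3% of all genes, and without dorsal catagen the catagen count was 1, Krt15, beside 5.08%, so that Lgr6 was lost at both stages and Foxc1 in catagen. Foxc1 in mid-anagen was also lost without chin mid-anagen replicate 2. Leaving out any one of 5 libraries lost the Sox9 call in mid-anagen, and any one of 3 the Lhx2 call in early anagen. The Tbx1 call in early anagen was lost when either dorsal library was left out. Relative to the basal keratinocyte list, neither Lgr6 (adjusted p = 0.91) nor Foxc1 (0.064) passed in mid-anagen, nor Lgr6 in late anagen (0.11). The catagen test was led by Tbx1 (adjusted p = 6.71e-15), through its level of 1.98 and 3.11 FPKM in dorsal skin against 24.21 to 33.43 in the other domains.

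Domains were then compared over the mean of all 6 stages. Ventral skin had 4 genes called against chin, beside 23.7% of all genes (9.13% higher, 14.5% lower). Sox9 was higher in ventral skin by 0.35 (SE 0.06, adjusted p = 0.000165) and Cd34 by 0.21, and Lgr6 fell by 0.46 (SE 0.05, 1.38e-08) and Lgr5 by 0.15. Without ventral early anagen 6 genes passed, 2 higher and 4 lower, beside 18.4% of all genes. Sox9 no longer passed (0.20, adjusted p = 0.056), Krt15 went from 0.12 to -0.23 (adjusted p = 0.0321), Nfatc1 from -0.05 to -0.28 (0.00131) and Tbx1 from 0.16 to 0.21 (0.0446).

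Dorsal skin had 5 genes lower than chin and 0 higher, beside 26.8% of all genes (9.52% higher, 17.3% lower), led by Tbx1 at -0.60 (SE 0.07, adjusted p = 1.10e-07) and Krt15 at -0.36 (SE 0.07, 0.000228). The smallest, Cd34 at -0.14 (adjusted p = 0.0495), was lost in 31 of 39 alternatives and reversed in 1, relative to the basal list (0.051). Without dorsal competent telogen 1 of the 10 remained, Tbx1 at -0.59, beside 29.2% of all genes, and Krt15 was at -0.04. Without dorsal catagen, Tbx1 in turn was at -0.14 (adjusted p = 0.14), but 4 genes were lower and 0 higher, beside 25.1% of all genes. These were Lgr6 (-0.40), Nfatc1 (-0.33), Krt15 (-0.26) and Foxc1 (-0.25), of which Foxc1 had not passed with dorsal catagen. Against ventral skin, dorsal skin had 6 genes lower and 1 higher, beside 37.5% of all genes (17.6% higher, 19.9% lower). Tbx1 fell by 0.76 (SE 0.07, adjusted p = 3.17e-10) and Krt15 by 0.48 (SE 0.07, 1.54e-06), and Lgr6 was higher by 0.20. Lhx2, at -0.19 (adjusted p = 0.0473), was lost in 31 of 41 alternatives. Without dorsal catagen the Lgr6 call was lost (0.11, adjusted p = 0.095), and 6 genes were lower and 0 higher, beside 33.1% of all genes. Without dorsal competent telogen 3 were lower and 2 higher, beside 36.5% of all genes. Nfatc1 then went from -0.25 to -0.02 (adjusted p = 0.87), Cd34 from -0.35 to -0.13 (0.071), Krt15 to -0.21 and Lgr6 to 0.41, and Lgr5 passed as higher (0.19, 0.00330). Without ventral early anagen, Sox9 went from -0.31 to -0.14 (adjusted p = 0.13), Krt15 to -0.30 and Lgr6 to 0.13, and Lgr5 passed at 0.17 (0.00612). Averaged over the 6 stages, the skeletal muscle list stood at 3037 summed FPKM in chin, 464.3 in ventral and 2330 in dorsal skin, the fibroblast list at 1606, 2770 and 1905, the melanocyte list at 234.1, 247.0 and 569.8 and the basal keratinocyte list at 3710, 4300.0 and 3430, and their part was not tested. Of the genes called, 38.6% were higher in ventral than chin skin, 35.5% in dorsal than chin and 47.0% in dorsal than ventral, and by quantile normalization 56.2%, 55.7% and 49.6%. The interaction of domain and stage passed for all 10, as for 73.3% of all genes, and without dorsal competent telogen again for all 10, beside 69.2%.

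Over the 18 group means of log2(FPKM + 1), Nfatc1 and Krt15 were the most alike pair (Pearson r = 0.944), followed by Nfatc1 with Cd34 (0.792) and with Lgr6 (0.789). Foxc1 ran against Tbx1 (-0.495) and Cd34 (-0.453). Without dorsal competent telogen r was again 0.944 for Nfatc1 and Krt15, and it was 0.79 for Nfatc1 with Cd34 and 0.78 with Lgr6. For Foxc1 it was then -0.506 with Tbx1 and -0.466 with Cd34. Group means share libraries and tissue composition, so these are descriptions without a test.

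For correlations with a list, the list was taken as the mean of log2(FPKM + 1) over its genes, not as their summed FPKM. The level of Nfatc1 ran opposite to the inner root sheath list over the 18 groups (r = -0.922), and so did Krt15 (-0.799), Cd34 (-0.759), Lgr6 (-0.698) and Lgr5 (-0.680). Sox9 (-0.274), Tbx1 (-0.278) and Foxc1 (0.167) did so less or not at all. Without dorsal competent telogen the first 5 were -0.921, -0.798, -0.755, -0.692 and -0.677, and Sox9, Tbx1 and Foxc1 were at -0.27, -0.269 and 0.18. With the basal keratinocyte list, r was 0.916 for Krt15, 0.869 for Nfatc1, 0.827 for Lhx2, 0.82 for Lgr5 and 0.805 for Lrig1. Without dorsal competent telogen these were 0.911, 0.863, 0.816, 0.825 and 0.799. Cd34 ran closest to the sebocyte list (0.929) and the fibroblast list (0.876), at 0.930 and 0.874 without dorsal competent telogen. FPKM is relative to all other RNA in a library, and the part of these lists in the levels was not tested.

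**Figure D3:**
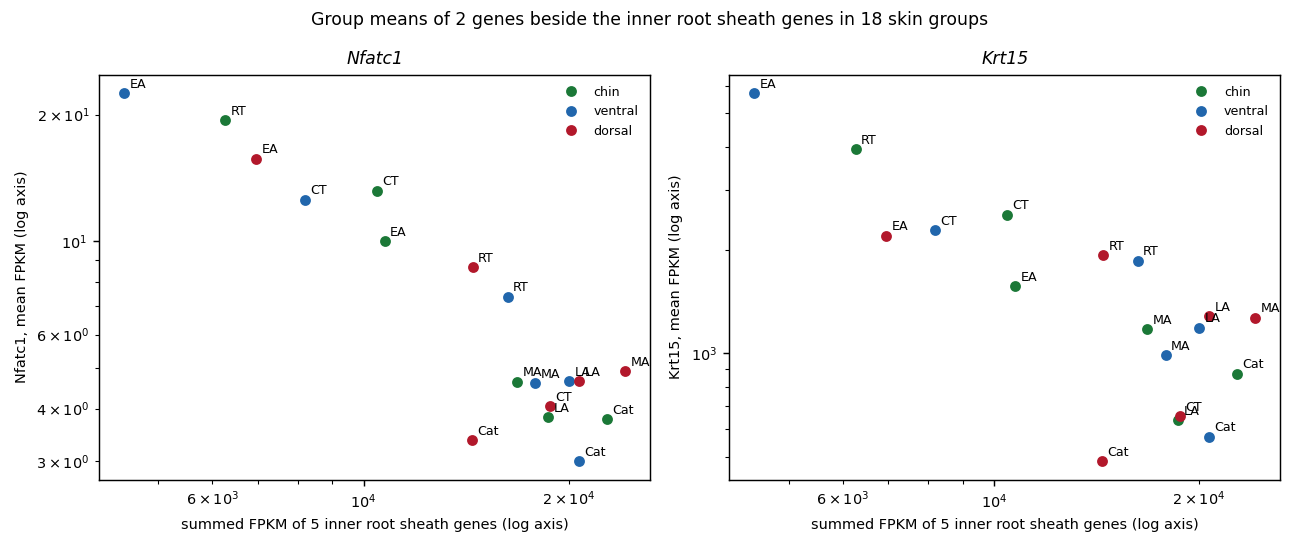
Mean FPKM of Nfatc1 (left) and Krt15 (right) against the summed FPKM of 5 inner root sheath genes in the 18 skin groups, all axes logarithmic, coloured by domain and labelled by stage as in the plot of levels. Ventral early anagen sits at the top left with 22.51 FPKM of Nfatc1 and 4456 FPKM of inner root sheath genes, and dorsal competent telogen sits beside chin late anagen.

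By Pearson r over the same 18 means, among 12070 genes tested with a group mean of at least 5 FPKM, the genes most like Krt15 were Col17a1 (0.993), Lamb3 (0.977) and Il34 (0.973). Nfatc1 was most like Gk5 (0.974), Vwa2 (0.970) and Abi3bp (0.966), and Cd34 most like Evi2a (0.960), Map6 (0.954) and Man2b2 (0.951). For Tbx1 they were Pcbp4 (0.961), Mospd3 (0.957) and Pex14 (0.956), for Lgr5 Mtmr11 (0.941), 2310001H17Rik (0.926) and Sbsn (0.924), and for Foxc1 Elmod1 (0.940), Gm37335 (0.921) and Rab21 (0.897). Lgr6 was most like Slc2a12 (0.928), Tgm5 (0.917) and Wnt16 (0.917), Lhx2 like Fam221a (0.921), Prr15l (0.879) and Nbeal2 (0.869), and Lrig1 like Krt5 (0.909), Notch3 (0.897) and Myo1e (0.895). Sox9 had the weakest likeness, with Gramd3 (0.846), Gast (0.796) and Hamp (0.792).

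A list of 24 other genes of the stem cell region was read beside the 10. Of all genes, 34.1% were lower and 8.55% higher in chin anagen. The shares were 22.9% and 8.82% in ventral anagen, and 10.4% and 21.0% in dorsal anagen. Without dorsal competent telogen, 33.3% of all genes were called in dorsal anagen. In chin refractory telogen 17.8% of all genes were higher and 18.4% lower. Ventral skin had 8.12% and 34.5%, and dorsal skin 10.8% and 11.3%. In chin anagen 16 of the 24 were lower and 0 higher, led by Krt24 (-2.17) and Col17a1 (-1.65), a collagen that anchors basal cells. In ventral anagen 13 were lower and 1 higher, with Krt19 at -2.35 and Postn at -1.44, and Bmp6 higher at 0.28. In dorsal anagen 8 were lower and 8 higher, Krt24 (1.3) and Sfrp1 (1.07) leading the higher and Hopx (-0.96) and Gas1 (-0.94) the lower, and without dorsal competent telogen 11 were lower and 7 higher. Between the telogen stages, chin had 11 higher and 7 lower in refractory telogen (Ctgf 2.17, Gas1 1.23, Itgb6 -1.39, Npnt -1.05), ventral skin 5 and 12 (Krt19 3.01, Fgf18 1.2, Gli1 -1.93, Itgb6 -1.43) and dorsal skin 9 and 2 (Col17a1 1.55, Fgf18 1.25, Krt19 -1.19, Gli1 -0.66).

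In ear tissue the 10 genes separated. Telogen ear skin held Krt15 at 2628 and 2777 FPKM, Cd34 at 111.1 and 112.1, Nfatc1 at 14.00 and 13.53 and Lgr6 at 5.34 and 4.53. Lhx2 was at 1.45 and 1.82 FPKM, Lgr5 at 2.55 and 2.29, Foxc1 at 3.60 and 3.26 and Sox9 at 28.63 and 30.14. Each of these 4 was below every one of the 43 skin libraries, whose lowest values were 5.57 for Lhx2, 3.88 for Lgr5, 6.81 for Foxc1 and 74.20 for Sox9. The share of all genes that lie below every skin library in ear skin was not computed, so this may not be particular to these genes. The 2 tables were deposited separately, but the dorsal libraries they share hold the same values in both.

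The labels and columns of the ear table name its dorsal libraries competent telogen. The study's text describes refractory telogen dorsal skin for this comparison, whereas the caption of its figure names first telogen. The study uses first telogen and competent telogen for the same stage, and both dorsal groups were used here. Against the dorsal libraries of its table, ear skin had 4 of the 10 genes higher and 4 lower, beside 59.3% of 19299 genes, 44.7% higher and 14.6% lower. Krt15 was higher by 2.04 (SE 0.27, adjusted p = 0.000985, and 0.073 with a pseudocount of 0.1), Cd34 by 1.59 (SE 0.07, 1.04e-05), Nfatc1 by 1.55 (SE 0.08, 2.16e-05) and Lgr6 by 1.33 (SE 0.10, 8.53e-05). Sox9 fell by 1.74 (SE 0.10, 3.91e-05), Lhx2 by 1.66 (SE 0.14, 0.000171), Foxc1 by 1.56 (SE 0.07, 1.62e-05) and Lgr5 by 1.27 (SE 0.13, 0.000399). With dorsal refractory telogen as the dorsal group, where 57.5% of all genes passed, Krt15 no longer did (0.48, adjusted p = 0.17), and Tbx1 (-0.97) and Lrig1 (-1.51) also passed as lower. The other 7 kept their direction and their call, but Nfatc1 went from 1.55 to 0.61 and Lgr5 from -1.27 to -2.20. Of the genes called between ear and dorsal skin, 75.3% were higher in ear skin, and 53.7% by median of ratios. The fibroblast list was at 10530 summed FPKM in ear skin and 1243 in dorsal skin, and the inner root sheath list at 291.5 and 18770, and their part was not tested.

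The cartilage/muscle complex was low in basal keratinocyte genes, with that list at 53.28 to 61.82 summed FPKM and Krt15 at 0.05, 0.91 and 0.19. Its sebocyte list, at 973.1 to 1007 summed FPKM, was near that of dorsal skin (1018 to 1027), mostly through the lipid enzyme gene Scd1 (652.86 to 676.81 FPKM), while Awat1, a wax synthase gene, was listed at 0 in all 3 libraries. Its chondrocyte list was at 365.5 to 412.4 and its skeletal muscle list at 11940 to 14070. Sox9 was at 141.5, 121.8 and 150.7 FPKM there, Nfatc1 at 14.30, 14.97 and 14.06, Lgr6 at 5.10, 5.24 and 5.36 and Cd34 at 35.74, 39.20 and 36.28. So Nfatc1, Lgr6, Cd34 and Sox9 were measured at levels of whole skin in tissue with almost no Krt15.

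Compared with ear skin, 2 of the 10 were higher in the complex, Sox9 by 2.19 (SE 0.09, adjusted p = 4.59e-06) and Foxc1 by 1.18 (SE 0.07, 1.68e-05), and 4 lower, Krt15 (-10.98), Cd34 (-1.57), Lrig1 (-1.26) and Lgr5 (-0.97), beside 66.5% of all genes, 28.0% higher and 38.5% lower. Nfatc1 (0.06, SE 0.07) and Lgr6 (0.07, SE 0.09) did not pass. The Lrig1 call was lost without either ear skin library (-1.25 and -1.28). Compared with dorsal skin, 3 were higher, Nfatc1 (1.61), Lgr6 (1.41) and Sox9 (0.45), and 6 lower, beside 71.1% of all genes, 42.8% higher and 28.3% lower. With dorsal refractory telogen in its place, where 68.5% of all genes passed, Sox9 was at 0.13 (adjusted p = 0.26), and by median of ratios against competent telogen at 0.19 (0.17). Nfatc1 went from 1.61 to 0.67 with refractory telogen and Foxc1 from -0.38 to -1.10, and Lrig1 was at -2.77 instead of -1.79. Of the genes called, 42.1% were higher in the complex than in ear skin and 60.2% than in dorsal skin, and by quantile normalization 54.3% and 54.9%. Relative to the basal keratinocyte list, nearly all genes are higher in the complex (98.1% against ear skin), and so are 9 of the 10, all but Krt15.

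**Figure D4:**
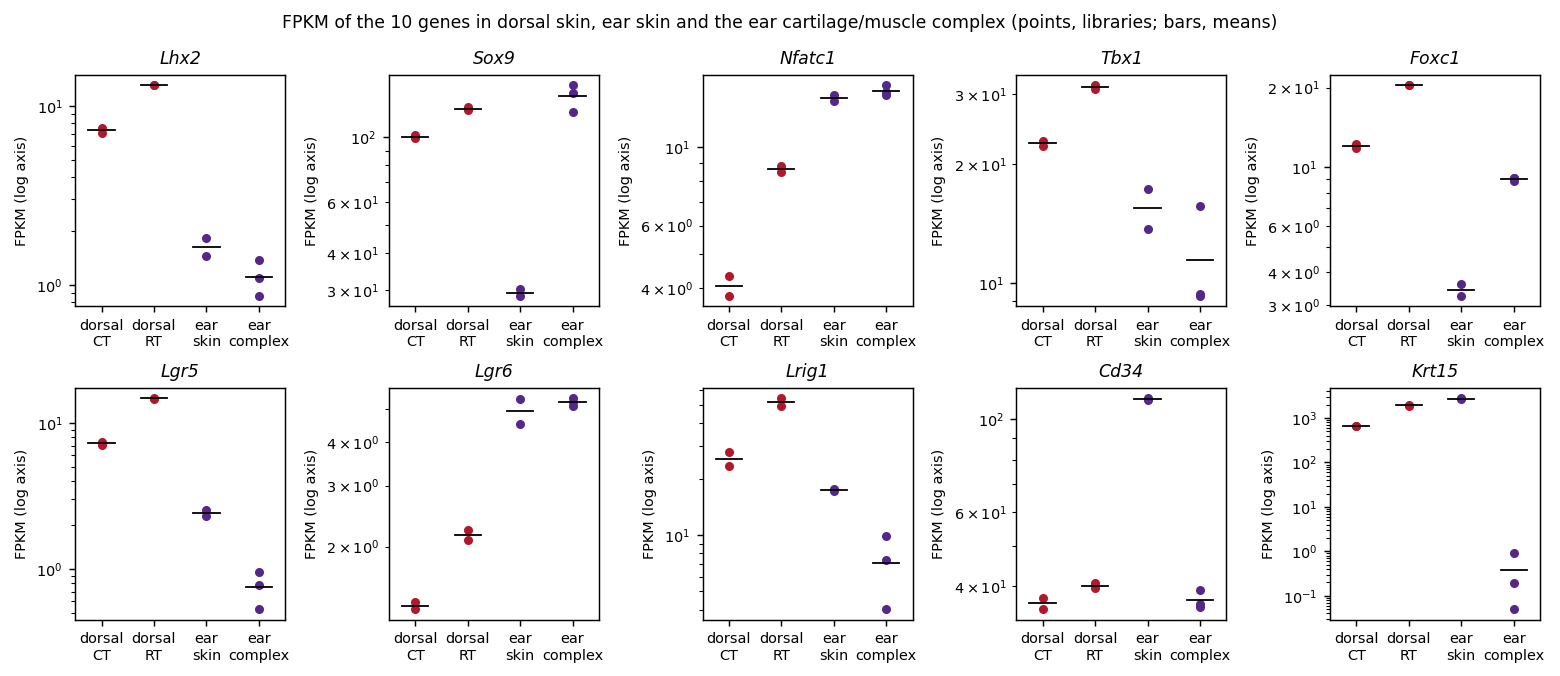
FPKM (log axes) of the 10 genes in dorsal competent telogen (CT), dorsal refractory telogen (RT), telogen ear skin and the cartilage/muscle complex. Points are libraries and bars are means. Krt15 is at 0.05 to 0.91 FPKM in the complex, where Sox9 is at 121.8 to 150.7.

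Of the 24 other genes, 11 were higher and 5 lower in ear than in dorsal skin, beside 44.7% and 14.6% of all genes. Krt24 was at 363.8 ± 16.3 FPKM (SD, n = 2) in ear skin and 1.40 ± 0.19 (n = 2) in dorsal skin, Postn was higher by 3.12, and Runx1 (-1.59) and Cdh3 (-1.35) led the lower genes. In the complex, 10 were higher and 11 lower than in ear skin, with Ctgf at 5.73 and Dkk3 at 3.65, Col17a1 at -6.66, and Krt24 listed at 0 in all 3 libraries. Against dorsal skin the same counts were found, with Ctgf at 6.31, Dkk3 at 4.46, Plet1 at -4.95 and Col17a1 at -4.18. Of all genes, 28.0% were higher and 38.5% lower in the complex than in ear skin, and 42.8% and 28.3% than in dorsal skin.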

How the data were processed

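Total RNA of microdissected whole skin and ear tissue was made into SMART-seq2 and Nextera libraries and sequenced as paired ends. The authors quantified reads with RSEM 1.2.25 on mm10 with GENCODE vM8 and deposited FPKM per gene with 2 decimals. They state a batch-effect correction, and neither its method nor its batches are given in the sources used here. The microarray data of the study were not used here. The 10 genes and all lists were chosen with earlier results of these data known.

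From the deposited FPKM, log2(FPKM + 1) was fitted with limma 3.58.1 in R 4.3.3, as 18 groups of 43 skin libraries and 3 groups of 7 ear table libraries, with a variance trend, for genes reaching 0.5 FPKM in 2 or more libraries. P-values are two-sided and Benjamini-Hochberg adjusted over all genes tested, at 0.05. A fold change on this scale understates that of low genes. Genes were named by rule: the 10 genes, for each the 3 genes most like it, and of the 24 others the 2 largest called changes in each direction. Hoxc13 was chosen after its values were seen. The cell type lists that differed most are given beside a result, and not every list is given for every comparison.

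Depth was estimated from the FPKM steps of 25166 genes with 1 transcript at 6703383 to 27704983 fragments per library (median 12548030), and it limits counting error only. Tested on simulated data, the dorsal anagen comparison recovered 91% of genes changed by 1 and 99% of those changed by 2 on the log2 scale, with 5.47% false calls, and ear skin against dorsal skin 67%, 98% and 7.30%. The changed genes all had a mean log2(FPKM + 1) over 2, and the other genes had no differences between groups. These rates were not tested for lower genes, or where as many genes differ as in the real data. The alternatives tried were another pseudocount, other filters, 4 scalings, no variance trend, a replicate block, and leaving out each library. Leaving out dorsal competent telogen, dorsal catagen or ventral early anagen was added after the data were seen, and a stage test then compares the other 2 domains.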

Additional observations from a re-analysis of the deposited data

Results flagged for a closer look

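For all 10 genes the 3 domains had different courses through the cycle, by limma's interaction of domain and stage over 21257 genes. The adjusted p was 7.91e-13 for Tbx1, 2.35e-12 for Krt15, 1.24e-11 for Nfatc1, 1.78e-11 for Lgr6, 5.43e-11 for Cd34, 1.47e-09 for Foxc1, 7.29e-06 for Lrig1, 8.12e-06 for Lgr5, 0.000244 for Sox9 and 0.000625 for Lhx2. The same test passed for 73.3% of all genes, so a differing course was the common case. Without the ventral early anagen libraries 9 of the 10 passed, all but Sox9 (adjusted p = 0.30), beside 68.9% of all genes, and without dorsal competent telogen (69.2%) or dorsal catagen (68.7%) all 10 did. No group has more than 3 libraries, so single libraries were not screened as outliers.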

How the results depend on the processing

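Of 22 counts of called genes, 15 stayed within 1.5 times their value under all alternatives run. The dorsal count of anagen against telogen was 7 by median of ratios and 8 by quantile normalization, against 4. Refractory against competent telogen in dorsal skin gave 4 relative to the basal keratinocyte list, against 7. Among the domains, competent telogen gave 5 without its dorsal libraries, against 8, early anagen 4 without its ventral libraries, against 9, and catagen 1 without its dorsal libraries, against 6. Dorsal over chin gave 1 without dorsal competent telogen, against 5, and the complex over ear skin gave 10 relative to the basal list, against 6.

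Of the fold changes, 26 reversed, 23 of them relative to the basal keratinocyte list. That scaling moved the median of all genes by over 0.1 in 10 of 12 comparisons, whereas median of ratios brought all of them within -0.04 to 0.07. The basal list moved the median to 4.87 for the complex over ear skin and 4.16 over dorsal skin, where the list is low. In chin anagen Lhx2 became 0.55, Tbx1 0.54 and Lrig1 0.23, and in ventral anagen Lgr6 0.14 and Foxc1 0.35. In dorsal refractory against competent telogen, Lhx2 became -0.11, Sox9 -0.54, Cd34 -0.73, Lgr6 -0.44 and Foxc1 -0.14. For dorsal over chin, Cd34 became 0.051, Lgr5 0.14 and Foxc1 0.16. For the complex over ear skin, Lhx2 became 4.66, Tbx1 4.54, Cd34 3.41, Lgr5 4.005 and Lrig1 3.72, and over dorsal skin Lhx2 1.94, Tbx1 2.96, Lgr5 1.68, Lrig1 2.14 and Foxc1 3.55. The other 3 were Cd34 for the complex over dorsal skin by median of ratios (-0.23), Krt15 in dorsal anagen without dorsal competent telogen (-0.60), and Krt15 for ventral over chin without ventral early anagen (-0.23). Apart from the libraries left out and this scaling's own shift, the cause was not tested.

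Leaving out each library in turn reversed 0 fold changes, took 62 below the threshold and 18 above it, of 1430. Same-numbered libraries did not deviate together (median r of 0.003 over 327 pairs, 9 of them over 0.1), so numbers were not taken as pairs. With a replicate block, 14 of 19 counts were as without it. The stages gave 9 in chin, against 10, the domains 9 at competent telogen, against 8, 6 at mid-anagen, against 7, and 7 at refractory telogen, against 6, and dorsal over ventral 6, against 7. No block was fitted for the ear table, whose ear skin columns carry no sample number. With 2 or 3 libraries a group, small differences may go undetected.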
